A study of Rattus norvegicus with 6 samples.

Results

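The astroglial and radial glial genes *Slc1a2*, *Slc1a3*, *Glul*, *Gja1*, *Aldoc*, *Aqp4*, *S100b*, *Aldh1l1*, *Ddah1* and *Hopx* were followed in polyA-selected RNA of rat cortical neural progenitors. The 10 genes were chosen by symbol, from their known use as radial glial or astroglial markers, and all 10 were present among the 17337 gene names of the deposited tables. The cells were dissociated from cortices of Sprague Dawley rats at embryonic day 14, expanded with bFGF and EGF at 20 ng/ml each, and collected after the second passage. They were untreated, so there was 1 condition, with 2 biological replicates (A and B) that were each sequenced as 2 technical libraries (A1 and A2, B1 and B2). These are cultured and passaged cells of embryos of either sex, and which cells of the cortex survive expansion in these growth factors is not given in the sources used here. The 2 Start-seq samples of short capped RNA were not analysed here. Levels are given as FPKM, read fragments per kilobase of transcript and per size of library, and the mean ± SD is over the 2 biological replicates after averaging technical libraries. With 1 condition no test between groups could be made, and a difference between replicates is described against the spread of technical libraries and against all other genes.

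Radial glia are the stem cells of the developing cortex, and they share much of their gene expression with the astrocytes that arise from the same lineage later. Both cell types take up glutamate through sodium-coupled transporters, convert it to glutamine, are coupled to one another by gap junctions, and supply neurons with metabolites. The 10 genes therefore fall into groups by role: glutamate uptake and its conversion (*Slc1a3*, *Slc1a2*, *Glul*), channels for small molecules and water (*Gja1*, *Aqp4*), enzymes of sugar, folate and arginine metabolism (*Aldoc*, *Aldh1l1*, *Ddah1*), a calcium-binding protein (*S100b*), and a homeodomain-only protein used as a marker of outer radial glia (*Hopx*).

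Promoter windows are shown for the pair of glutamate transporters, whose levels lay furthest apart within 1 function, for *Glul*, which differed most between replicates, and for *Aldoc*, the gene with the highest level. They are RefSeq promoter windows of build GRCr8, each 300 bases from 250 before to 50 after an annotated start, written 5′ to 3′ on the gene's strand. The files use rn6, whose sequence was not used here, so for each gene the window was taken whose distance to the end of the gene in GRCr8 lay nearest to the length of the gene in the files. These lengths were 3590 and 3590 bp for *Aldoc*, 75081 and 74483 bp for *Slc1a3*, and 9489 and 9156 bp for *Glul*. They were further apart for *Slc1a2*, at 130337 and 147053 bp, so its window may not be the start used in the files. The same holds for 2 windows that are not printed, that of *S100b*, at 8737 and 12221 bp, and that of *Aldh1l1*, at 46455 and 40973 bp, which also has opposite strands in GRCr8 and in the files. The windows are chr2:59557738-59558037 (minus strand) for *Slc1a3*, chr3:109459859-109460158 (plus) for *Slc1a2*, chr13:68575816-68576115 (plus) for *Glul* and chr10:63715294-63715593 (plus) for *Aldoc*. Capitals mark every match, on either strand, to 4 motifs. CCAAT is the box of that name. GGGCGG is the GC box known from many promoters. TGGGAA is the core bound by RBPJ, the DNA-binding factor of Notch signalling. TATAAA is the letters of the classical TATA box.
*Slc1a3*: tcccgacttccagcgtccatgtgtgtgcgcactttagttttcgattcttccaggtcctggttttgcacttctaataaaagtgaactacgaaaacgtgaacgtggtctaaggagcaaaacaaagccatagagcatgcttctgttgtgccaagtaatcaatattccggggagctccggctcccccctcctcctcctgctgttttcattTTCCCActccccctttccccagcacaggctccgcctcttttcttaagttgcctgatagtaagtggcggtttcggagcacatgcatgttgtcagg
*Slc1a2*: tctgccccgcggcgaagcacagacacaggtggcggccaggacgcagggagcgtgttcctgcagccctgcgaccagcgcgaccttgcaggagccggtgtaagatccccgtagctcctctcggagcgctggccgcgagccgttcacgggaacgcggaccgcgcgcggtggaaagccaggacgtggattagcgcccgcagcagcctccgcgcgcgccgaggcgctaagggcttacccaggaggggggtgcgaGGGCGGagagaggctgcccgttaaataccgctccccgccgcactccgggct
*Glul*: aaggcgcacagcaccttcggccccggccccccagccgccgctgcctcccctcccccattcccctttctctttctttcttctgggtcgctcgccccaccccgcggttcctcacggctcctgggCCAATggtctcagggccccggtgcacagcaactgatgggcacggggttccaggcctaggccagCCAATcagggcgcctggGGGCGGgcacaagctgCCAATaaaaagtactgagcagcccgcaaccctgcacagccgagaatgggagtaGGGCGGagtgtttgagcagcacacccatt
*Aldoc*: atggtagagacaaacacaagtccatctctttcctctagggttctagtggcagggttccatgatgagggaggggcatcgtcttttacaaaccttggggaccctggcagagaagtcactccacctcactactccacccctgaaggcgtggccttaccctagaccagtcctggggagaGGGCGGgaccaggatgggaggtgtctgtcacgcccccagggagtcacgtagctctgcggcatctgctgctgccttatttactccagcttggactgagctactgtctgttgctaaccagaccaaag

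The *Glul* window held 3 CCAAT and 2 GGGCGG matches, the *Slc1a2* and *Aldoc* windows 1 GGGCGG match each, and the *Slc1a3* window 1 match to TGGGAA. Over the windows of all 10 genes, CCAAT was found in 5, against 37.5% of the 33469 windows in the table, and GGGCGG in 5, against 33.1%. TGGGAA was found in 2, against 25.7% of all windows, and TATAAA in 0, against 14.2%. These counts include the windows of *Slc1a2*, *S100b* and *Aldh1l1*, of which *S100b* and *Aldh1l1* are among the 5 with CCAAT, *Slc1a2* and *Aldh1l1* among the 5 with GGGCGG, and *Aldh1l1* is 1 of the 2 with TGGGAA. No matches share bases with one another in the windows shown. The windows differed in base composition, with 71.0% G and C for *Slc1a2*, 65.7% for *Glul*, 56.0% for *Aldoc* and 50% for *Slc1a3*, where the median of all windows was 51.7%. Over the 10 genes the share ran from 47.3% for *Aqp4* to 71.0% for *Slc1a2* and *Ddah1*, and *Aqp4*, *Slc1a3* and *Gja1* were below that median. A match of letters is a description of the window and not of a bound site.

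The 4 libraries differed in depth. Depth was read from the coverage, the mean read depth over a gene, that corresponds to 1 FPKM, which was 24.3 and 22.7 for A1 and A2, and 24.4 and 6.83 for B1 and B2. B2 thus had 28.1% of the depth of B1, and the values of the 10 genes are given below for both libraries of replicate B. Even so, the lowest coverage of any of the 10 genes in any library was 26.6, for *Slc1a2* in B2, so none of them was near the limit of detection. *S100b* overlaps *Spatc1l* and *Hopx* overlaps *Spink2* on the same strand, but these neighbours were at no more than 0.1297 FPKM in any library.

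All 10 genes were expressed, and their mean levels covered a 94.3-fold range in FPKM. The mean was 10 FPKM or more for 9 genes and 100 FPKM or more for 5, a level reached by 6.14% of all gene names. The median of the 10 genes was 112 FPKM, against 16.6 FPKM for the 10481 gene names averaging 1 FPKM or more. Together the 10 genes made up 0.275% and 0.284% of all transcripts by TPM, the length-scaled share of transcripts, in A1 and A2, and 0.240% and 0.228% in B1 and B2.

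**Figure D1:**
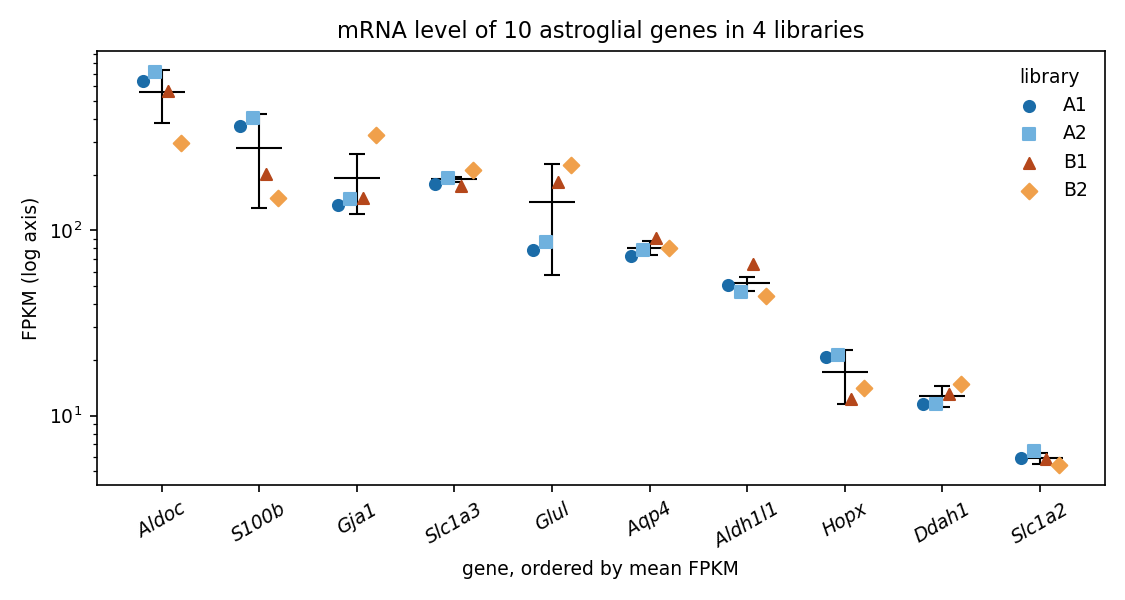
FPKM (log axis) of the 10 genes in libraries A1, A2, B1 and B2, ordered by their mean; horizontal bars and error bars are the mean and SD over the 2 biological replicates. *Aldoc* is highest at 556 FPKM and *Slc1a2* lowest at 5.90 FPKM, and the libraries of replicates A and B lie furthest apart for *Glul* and *S100b*.

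By mean FPKM the order was *Aldoc*, *S100b*, *Gja1*, *Slc1a3*, *Glul*, *Aqp4*, *Aldh1l1*, *Hopx*, *Ddah1* and *Slc1a2*. Of the 9 pairs of neighbours in this order, 4 had replicate means that did not overlap, namely *Aldoc* above *S100b*, *Aqp4* above *Aldh1l1*, *Aldh1l1* above *Hopx*, and *Ddah1* above *Slc1a2*. The other 5 pairs of neighbours, from *S100b* and *Gja1* to *Glul* and *Aqp4*, and *Hopx* and *Ddah1*, had replicate means that overlapped. *Glul* was nevertheless above *Aqp4* in 4 of 4 libraries, and pairs that are not neighbours were not compared in this way. *Gja1* was above *Slc1a3* in the mean and in only 1 of the 4 libraries.

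Of the genes for glutamate uptake, *Slc1a3*, which encodes the transporter GLAST, was the dominant transcript and *Slc1a2*, which encodes GLT-1, the main transporter of mature astrocytes, was low. *Slc1a3* spans 57860881 to 57935363 on the minus strand of rn6 chromosome 2. It had 178 and 192 FPKM in the libraries of A and 174 and 213 FPKM in those of B (B1 and B2), a mean of 189 ± 6.09 (SD, n = 2), which ranked 514 among all gene names. The libraries of A and B overlapped, and the technical libraries of B were further apart than the replicate means. *Slc1a2* spans 92518679 to 92665731 on the plus strand of rn6 chromosome 3. Its FPKM was 5.94 and 6.44 in A1 and A2 and 5.82 and 5.40 in B1 and B2, a mean of 5.90 ± 0.411 (SD, n = 2) at rank 7813. All 4 values lay within a narrow range, slightly lower in B than in A. For *Slc1a2* the coverage per FPKM was 0.719 to 0.731 of the median of each library, so its coverage and FPKM are not in the ratio usual for these tables, and the cause was not tested. Within a library the FPKM of *Slc1a3* was 30.02, 29.8 and 29.9 times that of *Slc1a2* in A1, A2 and B1, and 39.5 times in B2.

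*Glul* encodes glutamine synthetase, which joins ammonia to the glutamate taken up, and it was higher in replicate B. In rn6 this gene spans 71331052 to 71340207 on the plus strand of chromosome 13. It had 78.6 and 86.2 FPKM in the libraries of A and 182 and 225 FPKM in those of B (B1 and B2), a mean of 143 ± 85.9 (SD, n = 2). Both libraries of B were above both libraries of A, by 2.48-fold in the replicate means, and the gap was larger than between technical libraries. Relative to *Slc1a3* in the same library, *Glul* FPKM was 0.440 and 0.449 in A1 and A2 and 1.05 and 1.06 in B1 and B2. In bulk RNA, fewer cells of a type and less RNA of a gene per cell cannot be told apart.

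Among 16 other genes of glutamate and glutamine handling, 13 averaged 1 FPKM or more. The highest were *Glud1*, which encodes glutamate dehydrogenase, at 439 FPKM and the glutamine transporter *Slc38a3* at 72.6 FPKM. The remaining transporters of the *Slc1a* family were low or near 0, with means of 1.43 FPKM for *Slc1a4*, 1.11 for *Slc1a1*, 0.0987 for *Slc1a7* and 0.0357 for *Slc1a6*. The exception was the neutral amino acid transporter *Slc1a5*, at 11.6 and 12.1 FPKM in A1 and A2 and 45.0 and 83.4 FPKM in B1 and B2. *Slc1a5* was also the only gene of the 16 counted as differing between replicates by the criteria given below, and without B2 the count was 2, with *Pc*, the pyruvate carboxylase gene, added.

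*Gja1*, which encodes the main connexin of astroglial gap junctions, was high in every library but rested on B2 for its difference between replicates. The rn6 locus is chromosome 20, 37876650 to 37889094, plus strand. It had 138 and 149 FPKM in the libraries of A and 150.1 and 328 FPKM in those of B (B1 and B2), a mean of 191 ± 67.9 (SD, n = 2). B1 was level with A2, and B2 was 2.19-fold above B1. Without B2, the difference of B1 from replicate A on the log2(FPKM + 1) scale was 0.07, against 0.74 with both libraries.

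Of 14 other connexin and pannexin genes, 13 were listed and 6 averaged 1 FPKM or more, the highest being *Gjb2* at 40.2, *Gjc1* at 33.6 and *Panx1* at 4.75 FPKM. *Gjc1* was even, from 29.4 to 36.6 FPKM. *Gjb2*, a connexin gene that is also expressed in meninges, was at 7.53 and 7.41 FPKM in A1 and A2 and at 40.8 and 105 FPKM in B1 and B2. *Gjb6*, a connexin gene of mature astrocytes, was at 0.553 to 0.901 FPKM in 3 libraries and at 6.20 FPKM in B2. These were the 2 genes of the list counted as differing, both higher in B, and without B2 *Gjb6* was not counted.

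*Aqp4* encodes the water channel of astrocyte endfeet and was among the steadiest of the 10 genes. In rn6 this gene spans 6766009 to 6782757 on the minus strand of chromosome 18. It had 72.6 and 78.9 FPKM in the libraries of A and 91.4 and 80.3 FPKM in those of B (B1 and B2), a mean of 80.8 ± 7.15 (SD, n = 2). The libraries of B were above those of A, but the gap between B2 and A2 was small and the technical libraries of B were as far apart as the replicate means. Of the other aquaporins only *Aqp1*, which is known from the choroid plexus, reached 5 FPKM in the mean (5.51 FPKM), with 1.78 and 1.79 FPKM in A1 and A2 and 7.04 and 11.4 FPKM in B1 and B2. *Aqp9* had a mean of 1.05 FPKM.

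The list of 14 aquaporin and endfoot genes other than *Aqp4* had 12 members in the tables, 8 of them averaging 1 FPKM or more. *Mlc1*, an astroglial membrane protein gene, was highest at 283 FPKM, followed by *Dag1*, which encodes dystroglycan of the complex that anchors *Aqp4*, at 51.6 FPKM. *Kcnj10*, the gene of the main potassium channel of mature astrocytes, was low at 1.58 FPKM. *Aqp1* was the 1 gene of this list counted as differing, and it was higher in B.

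*Aldoc* encodes aldolase C, the brain form of a glycolytic enzyme, and was the highest of the 10 genes at rank 155. The rn6 locus is chromosome 10, 65586504 to 65590093, plus strand. It had 644 and 715 FPKM in the libraries of A and 568 and 297 FPKM in those of B (B1 and B2), a mean of 556 ± 175 (SD, n = 2). Both libraries of B were below both of A, yet the gap between B1 and B2 was larger than that between the replicate means. Without B2 the difference on the log2(FPKM + 1) scale was -0.26, against -0.65 with both libraries. *Aldoa*, which encodes the form of aldolase found in most tissues, moved the other way, with 302 and 327 FPKM in A1 and A2 and 437 and 465 FPKM in B1 and B2. The FPKM of *Aldoc* was thus 2.13 and 2.19 times that of *Aldoa* in A1 and A2, 1.30 times in B1 and 0.639 times in B2. Among 14 genes of glycolysis, glycogen and lactate, 13 averaged 1 FPKM or more, the highest were *Ldhb*, *Aldoa* and *Ldha* at 801, 382.5 and 109.7 FPKM, and 0 were counted as differing.

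*Aldh1l1* encodes the cytosolic formyltetrahydrofolate dehydrogenase, an enzyme of folate metabolism used as a general astrocyte marker. In rn6 this gene spans 123516553 to 123557525 on the minus strand of chromosome 4. It had 50.7 and 46.4 FPKM in the libraries of A and 65.7 and 44.3 FPKM in those of B (B1 and B2), a mean of 51.8 ± 4.56 (SD, n = 2). B1 and B2 were the highest and the lowest of the 4 values, so no difference between the replicates was seen. *Aldh1l2*, its mitochondrial counterpart, had a mean of 2.01 FPKM, and the FPKM of *Aldh1l1* was 25.5, 24.1, 64.7 and 14.2 times that of *Aldh1l2* in A1, A2, B1 and B2. Of 16 other folate genes, 15 were listed and 13 averaged 1 FPKM or more, the highest being *Shmt2* and *Mthfd1* at 56.4 and 31.5 FPKM. The folate carrier *Slc19a1*, named after its values were seen, was the 1 gene of this list counted as differing, with 6.88 and 6.27 FPKM in A1 and A2 and 12.0 and 20.6 FPKM in B1 and B2, and without B2 it was not counted.

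*Ddah1* encodes a hydrolase of asymmetric dimethylarginine, an inhibitor of nitric oxide synthases, and it was low and even. The rn6 locus is chromosome 2, 251634368 to 251765026, plus strand. It had 11.6 and 11.6 FPKM in the libraries of A and 13.1 and 14.8 FPKM in those of B (B1 and B2), a mean of 12.8 ± 1.65 (SD, n = 2). The libraries of B were a little above those of A. *Ddah2*, the second gene of the family, was far higher at 342 FPKM, and the FPKM ratio of *Ddah2* to *Ddah1* was 26.2 and 27.4 for A1 and A2, and 23.9 and 29.3 for B1 and B2. Of 16 other genes of dimethylarginine and nitric oxide metabolism, 11 averaged 1 FPKM or more and 0 were counted as differing. The highest after *Ddah2* were *Prmt1*, the main arginine methyltransferase gene, at 224 FPKM and *Nosip* at 56.8 FPKM. The 3 nitric oxide synthase genes were low, with *Nos3* the highest of them at a mean of 0.213 FPKM.

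*S100b*, which encodes a calcium-binding protein of the S100 family, was high and was lower in replicate B. In rn6 this gene spans 13130636 to 13142856 on the minus strand of chromosome 20. It had 365 and 403 FPKM in the libraries of A and 203 and 149 FPKM in those of B (B1 and B2), a mean of 279.9 ± 147 (SD, n = 2). Both libraries of A were above both libraries of B, by 2.18-fold in the replicate means. Without B2 the difference on the log2(FPKM + 1) scale was -0.92, against -1.12 with both libraries.

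The other S100 genes split in direction. Of 12 genes, 8 averaged 1 FPKM or more, 3 were counted as higher in B and 1 as higher in A. *S100a11* was at 139 and 172 FPKM in A1 and A2 and at 468 and 1115 FPKM in B1 and B2, and *S100a10* at 94.8 and 106 FPKM in A and 318 and 527 FPKM in B. *S100a6*, named after its values were seen, was the third that was higher in B, at a mean of 53.5 FPKM. *S100a16* was higher in A, as *S100b* was, with 176 and 193 FPKM in A1 and A2 and 98.3 and 83.4 FPKM in B1 and B2. Without B2 it was not counted, and the 1 gene of the list then counted as higher in A was *S100a1*, named after its values were seen. The FPKM ratio of *S100b* to *S100a16* stayed between 1.78 and 2.08 in the 4 libraries, while that of *S100b* to *S100a11* was 2.63 and 2.34 in A1 and A2 and 0.433 and 0.134 in B1 and B2.

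*Hopx*, at rn6 chromosome 14, 33354807 to 33362544, plus strand, was of moderate level. It had 20.9 and 21.2 FPKM in the libraries of A and 12.3 and 14.2 FPKM in those of B (B1 and B2), a mean of 17.1 ± 5.50 (SD, n = 2). Both libraries of A were above both libraries of B, by 1.59-fold in the replicate means, and the technical libraries of each replicate were close. *Hopx* therefore shared its direction with *Aldoc* and *S100b*.

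The replicates were then compared over all genes, to see whether the 10 genes stood out. All of the following had to be met for a gene to count as differing. Its mean reached 1 FPKM, its replicate means were at least 1 apart in log2(FPKM + 1), and both libraries of one replicate lay above both of the other. The added 1 makes changes of low genes look smaller. *Glul* was counted as higher in B (1.30) and *S100b* as higher in A (-1.12). These are 2 of the 10 genes, where 6.20% of the 10481 gene names averaging 1 FPKM or more were counted in either direction, 4.78% as higher in B and 1.42% as higher in A. With 10 genes these shares were not compared further. Without B2, *Glul* was still counted (1.14) and *S100b* was not.

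Complete separation of the A from the B libraries was more common and is a weak criterion. It held for 8 of the 10 genes, with *Glul*, *Gja1*, *Aqp4* and *Ddah1* higher in B and *Aldoc*, *S100b*, *Hopx* and *Slc1a2* higher in A. It held for 60.1% of all gene names tested, 2945 of them higher in B and 3354 in A. The tilt towards B among the names counted as differing was therefore not seen by separation alone. The 10 genes did not move one way. The median of their log2 differences was 0.12 (-0.0043 without B2), against -0.03 over all gene names tested, and the median of their absolute differences was 0.44, against 0.24. The technical libraries of A were close for every one of the 10 genes, with a largest absolute log2 difference of 0.15. Those of B differed by up to 1.12, for *Gja1*, and for 5 of the 10 genes the gap between B1 and B2 was larger than that between the replicate means.

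**Figure D2:**
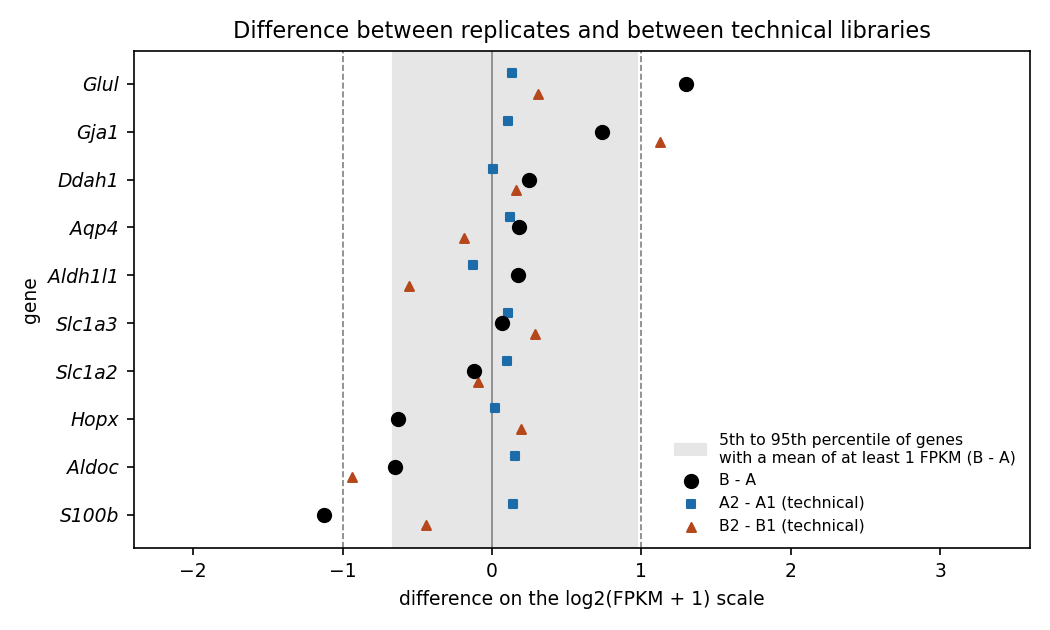
Difference on the log2(FPKM + 1) scale for each gene between the replicate means (B - A, black circles) and between technical libraries (A2 - A1, squares; B2 - B1, triangles); the grey band spans the 5th to 95th percentile of B - A over all genes averaging 1 FPKM or more (-0.66 to 0.97) and dashed lines mark a difference of 1. Of the B - A circles only *Glul* (1.30) and *S100b* (-1.12) lie beyond the dashed lines and outside the band, and among the B2 - B1 triangles that of *Gja1* (1.12) lies beyond both and that of *Aldoc* (-0.94) outside the band.

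Ratios of related genes within 1 library do not depend on how libraries are scaled, and they were compared across the 4 libraries. The *Slc1a3* to *Slc1a2* ratio had a mean of 32.2 ± 3.27 (SD, n = 2), with 29.9 in B1 near both libraries of A and 39.5 in B2 above them. The *Ddah2* to *Ddah1* ratio had a mean of 26.8. Its replicate means were nearly equal because B1 and B2 lay on either side of A, and the mean was 25.3 when B2 was left out. The ratio of *Gja1* to *Gjb2* fell from 18.3 and 20.0 in A1 and A2 to 3.68 and 3.13 in B1 and B2. That of *Aqp4* to *Aqp1* fell likewise, from 40.8 and 44.1 to 12.98 and 7.02. In each of these pairs it was the relative of the astroglial gene, *Gjb2* or *Aqp1*, that changed more.

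**Figure D3:**
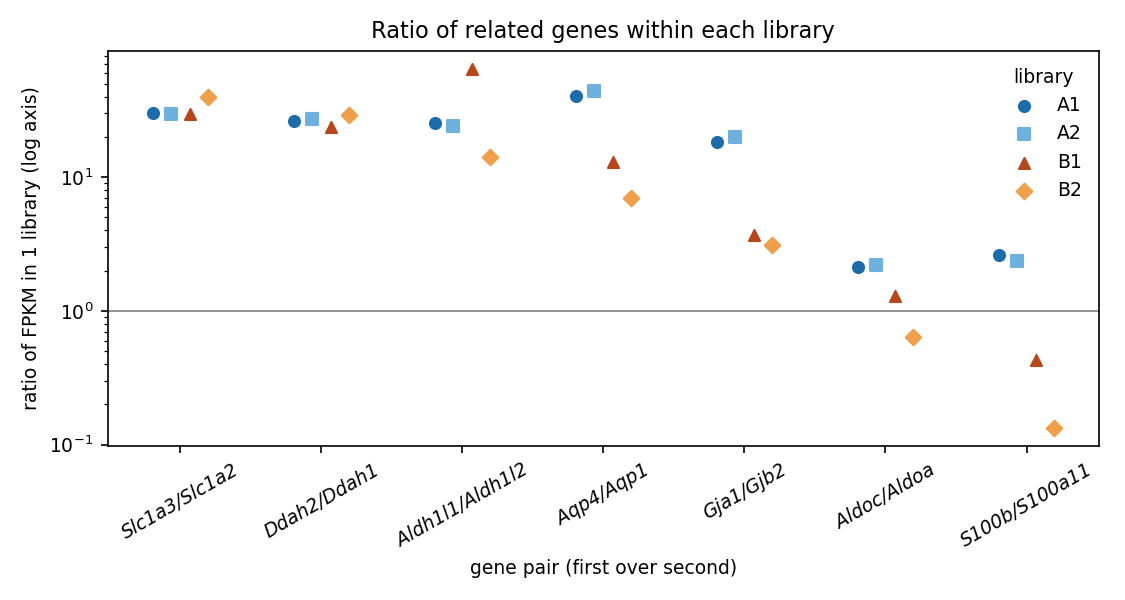
Ratio of FPKM of related genes within each library (log axis; first gene over second, line at 1). Ratios of *Slc1a3* to *Slc1a2* lie between 29.8 and 30.02 in 3 libraries and at 39.5 in B2, those of *Ddah2* to *Ddah1* lie between 23.9 and 29.3, and *Aqp4* to *Aqp1*, *Gja1* to *Gjb2*, *Aldoc* to *Aldoa* and *S100b* to *S100a11* are lower in B1 and B2.

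Lists of marker genes were used to check the label of the cells and to see what else differed between the replicates. Radial glial markers were present, with 19 of 19 averaging 1 FPKM or more, a level reached by 10481 of all 17337 gene names. *Fabp7*, *Vim* and *Dbi* were the highest, at 11840.5, 3291 and 1694 FPKM. Others were far lower. Named after their values were seen, *Nes* and *Pax6* had means of 39.1 and 33.9 FPKM, and *Prom1*, the lowest of the list, 2.75 FPKM. The summed FPKM of the list was 25139.5 and 27584 in A1 and A2 and 13084.5 and 13143 in B1 and B2. Most of this difference was *Fabp7*, which had 16799.7 and 18557 FPKM in A1 and A2 and 6519.6 and 5485 FPKM in B1 and B2. Of the 19 genes, 3 were counted as higher in A and 1 as higher in B, and their median log2 difference was -0.35. Named after their values were seen, these were *Fabp7*, *Hes5* and *Ttyh1* (higher in A) and *Fam107a* (higher in B), and without B2 *Ttyh1* was not counted. Astrocyte markers were also present, with 16 of 16 averaging 1 FPKM or more and *Mt3*, *Apoe* and *Cst3* the highest, at 4579.6, 2687 and 2488 FPKM. *Gfap*, named after its values were seen, had 502 and 460 FPKM in A1 and A2 and 419 and 904 FPKM in B1 and B2, a mean of 571. The lowest of the list was *Gjb6*, at a mean of 2.06 FPKM. Of the 16 genes, 1 was counted as higher in B (*Gjb6*) and 2 as higher in A (*Agt* and *Slc7a10*). Only *Agt* was counted without B2. The median log2 difference of the list was -0.37.

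Markers of meningeal and mesenchymal cells moved with replicate B. All 9 averaged 1 FPKM or more. Of these, 8 were counted as higher in B (7 without B2) and 0 as higher in A, with a median log2 difference of 2.17. Among all gene names tested, 4.78% were counted as higher in B. The list, like the others, was chosen with earlier results of these data known. Named after their values were seen, *Ptgds* and *Foxc1* differed most between B1 and B2, at 8.18 and 292 FPKM and at 29.4 and 115 FPKM. The summed FPKM of the 9 markers was 664 and 646 in A1 and A2 and 2489.9 and 3287 in B1 and B2. The sum of B1 alone was 3.80 times that of replicate A. The highest were the collagen genes *Col3a1*, *Col1a1* and *Col1a2*, at means of 486, 449 and 429 FPKM, and no marker of the list was at 0 in any library. *Glul*, *Gjb2*, *Slc1a5*, *S100a11* and *S100a10* were also counted as higher in B. So were *Aqp1*, *S100a6*, *Gjb6*, *Slc19a1*, *Fam107a*, *Olig1* and *Pdgfra*. *Gja1* was not counted, since it was far above A in B2 (328 FPKM) but only just above A2 in B1 (150.1 and 149 FPKM). The part of meningeal and mesenchymal cells in these levels was not tested.

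Other cell types were less prominent. Microglial and endothelial markers summed to at most 1.65 and 2.37 FPKM in any library, and 0 of 6 and 0 of 5 reached a mean of 1 FPKM. Neuronal markers had sums of 198 to 255 FPKM, with *Tubb3*, *Gap43* and *Stmn2* the highest at 118, 66.5 and 21.4 FPKM and 0 of 7 genes tested counted as differing. Oligodendrocyte lineage markers summed to 269 and 294 FPKM in A1 and A2 and 705 and 364 FPKM in B1 and B2, with *Olig1*, *Olig2* and *Pdgfra* the highest, and 2 of 6 genes tested (*Olig1* and *Pdgfra*) were counted as higher in B. Of the intermediate progenitor markers only *Btg2* was listed, at 151 FPKM, and it was counted as higher in A, though not without B2. Among ependymal and choroid plexus markers, *Ttr* was at 80.7 and 82.6 FPKM in A1 and A2 and 26.4 and 3.03 FPKM in B1 and B2, while *Foxj1* was at 28.5 to 45.5 FPKM and *Kl* at a mean of 0.0178 FPKM. Of the 2 genes tested, *Ttr* was counted as higher in A, with and without B2. Markers of cycling cells summed to 212 to 293 FPKM, led by *Pcna*, *Cdk1* and *Mcm2*, and 0 of 6 were counted as differing.

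**Figure D4:**
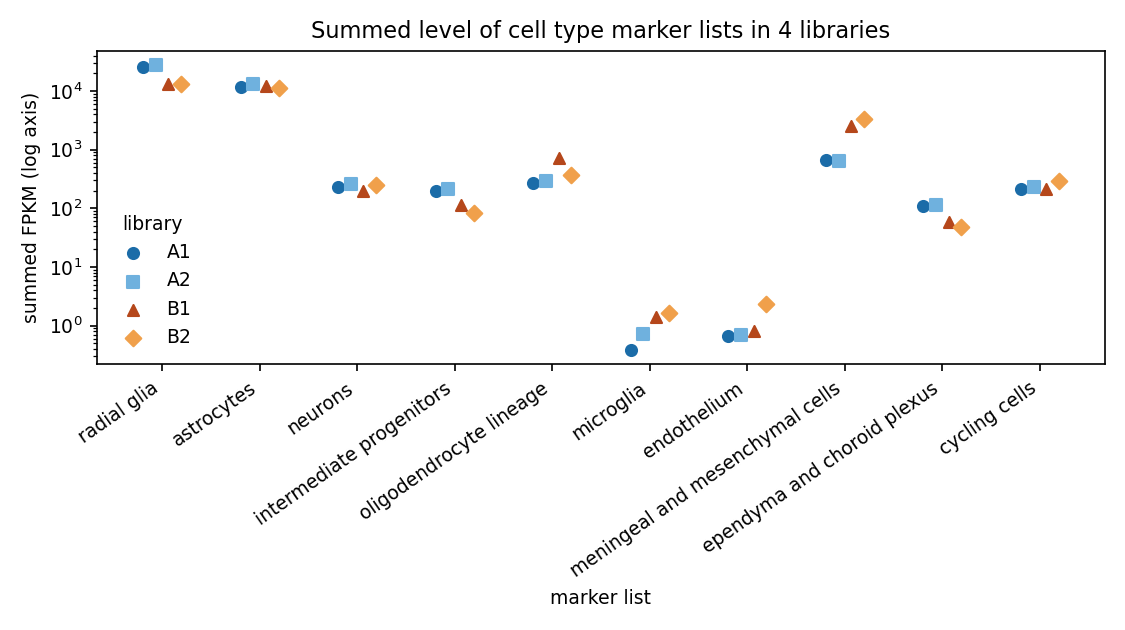
Summed FPKM (log axis) of each marker list in libraries A1, A2, B1 and B2. Radial glial markers are higher in A1 and A2 (25139.5 and 27584 FPKM) than in B1 and B2 (13084.5 and 13143 FPKM), meningeal and mesenchymal markers are higher in B1 and B2 (2489.9 and 3287 FPKM), and microglial and endothelial markers stay below 3 FPKM in every library.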

How the data were processed

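Libraries of polyA-selected RNA of cortical neural progenitors were prepared with the NEBNext Ultra II kit, and STAR was used for alignment to rn6. The authors deposited 1 table per library, in the layout of StringTie, with coverage, FPKM and TPM for each RefSeq gene. The FPKM values were used as deposited by the authors. The TPM values deposited by the authors are shares of all transcripts, and the deposited coverage is not scaled for depth. Rsubread and DESeq2 are named in the methods for expression levels, and tool versions are not given in the sources used here. Whether the libraries keep strand is not given either.

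FPKM was summed over rows of a gene name (each of the 10 genes had 1 row), averaged over technical libraries, then over replicates A and B, as the sample titles group them. Other column names of the study leave room for pairing A1 with B1 instead, and this was tried as an alternative. A pseudocount of 1 was used on the log2 scale. No p-value was computed, since 2 technical libraries are not independent. The genes and lists were chosen with earlier results of these data known. Genes named are the 10, their nearest relatives and the 3 highest of each list, some of which are not reported here. The ratios of *Glul* to *Slc1a3* and of *S100b* to *S100a11* and *S100a16* were chosen after values were seen. Alternatives were a pseudocount of 0.1, TPM, median-ratio scaling, other filters and thresholds, another grouping of libraries, the highest row of a name, and leaving out B2 or a replicate. Python 3.11.15, pandas 2.3.3, numpy 2.4.6 and matplotlib 3.10.9 were used.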

Additional observations from a re-analysis of the deposited data

Results flagged for a closer look

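In each of 45 sets of 4 library values (10 genes, 14 relatives, 11 ratios and 10 marker lists), the gap between 1 library and its nearest neighbour was set against the whole range. In 7 of them 1 library stood far from the other 3, and in all 7 that library was B2, the library with the least depth. Among independent samples about 1 in 20 would be picked by chance, which technical pairs and ratios that share a gene are not.

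*Gja1* had 328 FPKM in B2 and 138 to 150.1 FPKM elsewhere. The connexin gene *Gjb6* had 6.20 FPKM in B2 and 0.553 to 0.901 FPKM elsewhere, and *Ddah2* had 433 FPKM in B2 and 303 to 318 FPKM elsewhere. The ratio of *Slc1a3* to *Slc1a2* was 39.5 in B2 and 29.8 to 30.02 elsewhere, and that of *Gja1* to *Gjc1* was 11.2 in B2 and 4.10 to 4.22 elsewhere. The ratio of *S100b* to *S100a16* was 1.78 in B2 and 2.06 to 2.08 elsewhere. Endothelial markers summed to 2.37 FPKM in B2 and to 0.670 to 0.795 FPKM elsewhere. The coverage of *Gja1* and *Ddah2* in B2 was 2245 and 2435, and whether low depth had a part in these gaps was not tested. B1 and B2 also differed in single marker genes, such as *Ptgds* (8.18 and 292 FPKM) and *Foxc1* (29.4 and 115 FPKM). *Ttr* differed the other way (26.4 and 3.03 FPKM).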

How the results depend on the processing

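Of 141 alternative values computed, 14 moved beyond their spread. This was the spread of the replicates (counts: beyond 1.5 times), and for median differences the spread over pairs of libraries, 0.0445. TPM levels were first divided by the mean TPM per FPKM of the libraries. For 30 levels no such move was possible. Leaving out 1 of 2 replicates cannot exceed the spread of the replicates, and each of the 10 genes has 1 row per table. The tally is therefore no measure of stability. The number of the 10 genes counted as differing was 2, and it became 5 at a log2 difference of at least 0.58 (*Glul* and *Gja1* higher in B, *Aldoc*, *S100b* and *Hopx* higher in A), 1 without library B2, where *S100b* fell under the threshold (-0.92) and *Glul* was left, and 0 with libraries regrouped as A1 with B1 and A2 with B2, a reading of the study's column names that the sample titles do not give. It stayed at 2, with *Glul* and *S100b*, under the other settings computed. Over all gene names the count was 650 (501 higher in B, 149 in A, of 10481 tested). It became 900 with a pseudocount of 0.1 (643 and 257) and 757 with TPM (534 and 223, of 10983 tested). Among names averaging 10 FPKM or more it was 331 (245 and 86, of 6636 tested). At a log2 difference of at least 0.58 it was 1725 (997 and 728). Without B2 it was 571 (382 and 189, of 10413 tested). It was 20 in the other grouping of libraries, and 645 with log2 values averaged, a setting added after the data were seen. The median difference of the 10 genes, 0.12, became 0.0702 with TPM, 0.18 at a mean of at least 10 FPKM, where *Slc1a2* drops out, and -0.0043 without B2, so its sign rests on B2. The direction of *Slc1a3*, which was not counted as differing, changed without B2 (-0.09). Levels of 2 genes moved beyond the spread without B2, *Slc1a3* to 179.7 FPKM and *Aldh1l1* to 57.1 FPKM, as did the ratios of *Aldh1l1* to *Aldh1l2* (44.8) and *Ddah2* to *Ddah1* (25.3), also added after the data were seen. Beyond the reasons given, the cause was not tested. Ranks moved in 4 of 50 cases. No paired analysis was possible because there was 1 condition and no test between groups.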
